A study of Homo sapiens with 4 samples.

Results

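The replication-dependent histone genes of human chromosomes 6 and 1 were examined for Fra-1 and DDX5 binding in BT549 cells, an established human breast cancer line without oestrogen receptor alpha. The peaks were those overlapping 3 stretches of hg19 that hold the HIST1 and HIST2 genes, by at least 1 bp: chromosome 6, 26015000 to 26290000 (called HIST1 left here, 275 kb), chromosome 6, 27770000 to 27865000 (HIST1 right, 95 kb), and chromosome 1, 149750000 to 149865000 (HIST2, 115 kb). The stretches were set by position, not by peak values, but were chosen with earlier results of these data known. They held 123 of the 57601 entries of 4 deposited peak lists: 59 of 30571 Fra-1 peaks over input (0.193%), 60 of 10836 DDX5 peaks over input (0.554%), 2 of 16133 over IgG for Fra-1 (0.0124%) and 2 of 61 over IgG for DDX5 (3.28%). The same site can be listed up to 4 times in that total.

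The chromatin immunoprecipitation (ChIP-seq) libraries came from untreated, sonicated BT549 nuclei: 1 with an antibody to Fra-1, 1 with an antibody to DDX5, 1 with normal rabbit IgG, and 1 library of input DNA with no antibody. Each list compares 1 ChIP library with 1 control. There is 1 library per antibody, so the design gives no test of any difference. Intervals beside shares are 95% exact binomial (Clopper-Pearson) and cover counting error only. The pileup of a peak is the authors' depth of ChIP fragments at its summit, and its fold is the authors' enrichment over the control. The control level at a peak was worked back from both, taking the fold as pileup plus 1 over control level plus 1. Read totals were not among the sources, so depth is unknown. In the lists over IgG all pileups are multiples of 0.884 (Fra-1) or 0.998 (DDX5), within 0.02, where those over input are whole numbers. Input and IgG levels thus come from lists scaled differently and were not rescaled to each other.

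Replication-dependent histone genes make the H1, H2A, H2B, H3 and H4 proteins that package new DNA. They are short, lack introns, lie in clusters, and are transcribed strongly as cells copy their DNA. Their messenger RNAs end in a stem-loop in place of a poly(A) tail, and the genes gather in a nuclear structure called the histone locus body. Fra-1 belongs to the Fos proteins, which pair with Jun proteins to form the transcription factor AP-1. DDX5, an RNA helicase with a DEAD box, takes part in RNA processing and also serves as a coactivator of transcription.

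RefSeq lists 66 protein-coding genes with HIST1 or HIST2 names, 55 on chromosome 6 and 11 on chromosome 1. These are 6 H1, 16 H2A, 17 H2B, 13 H3 and 14 H4 genes. The gene table is of build GRCh38.p14 and the peaks are in hg19, so no peak was assigned to a gene and peaks are named by hg19 position. Which of the 66 genes, and which other genes, lie inside the stretches was not determined, so a peak there need not lie at a histone gene. Histone peaks, sites, pairs and groups are named below for the stretches only. For 61 of the genes RefSeq gives 65 promoters, each from 250 bases before to 50 bases after a start.

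The 150 bases before the start of 4 HIST2 genes are shown, 1 for each core histone, because the 3 histone DDX5 peaks with the highest folds lay in the HIST2 stretch. For each histone, the chromosome 1 promoter with the most kinds of the motifs counted below was taken, and at a tie the lowest gene number. The promoters shown were thus picked for holding such motifs and do not stand for their families. Capitals mark a CCAAT box, a TATA box (TATAAA) or the octamer bound by Oct-1 (ATTTGCAT), read on either strand.
H2BC21 (GRCh38.p14, chr1:149886683-149886832, minus strand): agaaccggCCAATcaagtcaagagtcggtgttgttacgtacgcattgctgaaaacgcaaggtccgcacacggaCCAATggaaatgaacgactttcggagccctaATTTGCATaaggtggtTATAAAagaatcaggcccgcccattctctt
H2AC18 (GRCh38.p14, chr1:149842751-149842900, minus strand): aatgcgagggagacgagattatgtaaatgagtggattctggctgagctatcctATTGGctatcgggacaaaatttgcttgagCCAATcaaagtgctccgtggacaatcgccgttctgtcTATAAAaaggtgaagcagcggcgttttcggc
H3C13 (GRCh38.p14, chr1:149813694-149813843, minus strand): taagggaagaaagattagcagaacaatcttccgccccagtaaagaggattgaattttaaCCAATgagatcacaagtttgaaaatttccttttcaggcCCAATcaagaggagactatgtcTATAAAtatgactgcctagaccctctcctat
H4C14 (GRCh38.p14, chr1:149832507-149832656, plus strand): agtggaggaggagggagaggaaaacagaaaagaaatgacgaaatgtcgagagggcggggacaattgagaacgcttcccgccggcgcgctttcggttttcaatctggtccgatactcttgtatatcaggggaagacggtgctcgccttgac
The H2B promoter holds all 3 elements, those of H2A and H3 hold CCAAT and TATA boxes, and the stretch shown for H4C14 holds none of the 3.

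The same elements were counted over all histone promoters of the table. CCAAT, on either strand, was in 56 of 65 histone promoters (86.2%) and in 34.6% of all 35116 promoters of the table. It was in every H1, H2A, H2B and H3 promoter and in 3 of 12 H4 promoters. TATAAA was in 44 of 65 (67.7%), against 11.5% of all promoters, and by family in 50% (H1 and H4) to 80% (H2A). The octamer was in 11 of 15 H2A, 15 of 19 H2B, 1 of 13 H3 and no H1 or H4 promoter, and in 1.77% of all promoters. The AP-1 motif TGACTCA, read on both strands, was in 0 of 65 histone promoters and in 1738 of 35116 (4.95%). A count of 0 says only that these letters are not in these 300 bases, and the sequence under the peaks was not read.

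Some HIST2 promoters are exact copies of each other. Aligned without gaps, the promoters of H4C14 and H4C15 were the same over 300 bases, those of H2AC18 and H2AC19 over 299 and those of H3C14 and H3C15 over 296. On chromosome 6, H4C11 and H4C12 shared 295 of 300 bases. H2AC7 and H3C4 are listed there with 1 and the same promoter interval, which is a shared start and not a copy. Reads that lie wholly within bases shared by such copies cannot be told apart, and the sources do not state how the authors placed them. Values at such copies, most of them in HIST2, carry that limit.

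Both antibodies had many peaks over input in all 3 stretches. Fra-1 had 30 peaks in HIST1 left, 17 in HIST1 right and 12 in HIST2, and DDX5 had 29, 16 and 15. For DDX5 this was 105, 168 and 130 peaks per Mb, against 2.81 per Mb on the rest of chromosome 6 and 5.76 on the rest of chromosome 1. The density was thus 37.6, 60 and 22.6 times that of the same chromosome. For Fra-1 it was 109, 179 and 104 peaks per Mb, against 10.4 and 14, or 10.5, 17.2 and 7.43 times. The 3 stretches together held 27.1 times the DDX5 density and 9.68 times the Fra-1 density over input of chromosomes 1 and 6 outside them. The Fra-1 list over IgG did not show this, with 4.12 peaks per Mb in the stretches (2 peaks) and 6.41 outside, or 0.644 times. For DDX5 over IgG the densities were 4.12 and 0.00953 per Mb, from only 2 peaks inside and 4 outside.

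**Figure D1:**
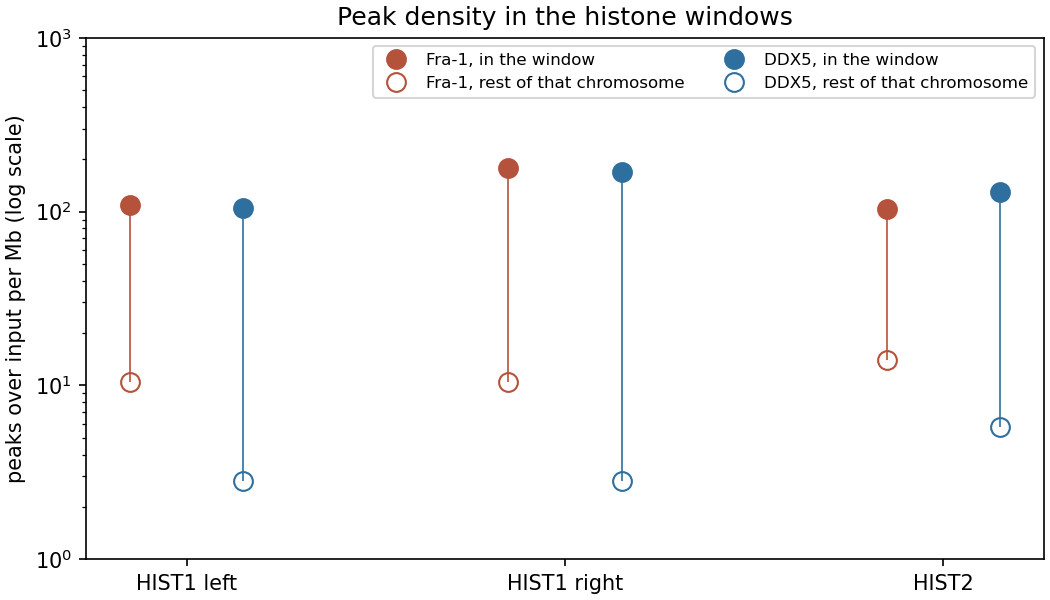
Peaks over input per Mb (log axis) in each histone stretch (filled points) and on the rest of its chromosome (open points), for Fra-1 and DDX5. DDX5 stood at 2.81 or 5.76 peaks per Mb outside and at 105 to 168 inside, and Fra-1 at 10.4 or 14 and at 104 to 179.

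Few places of the same size held as many. When chromosomes 1 to 22 and X were cut into consecutive tiles as long as each stretch, 11 of 11018 tiles held at least the 29 DDX5 peaks of HIST1 left, 25 of 31880 at least the 16 of HIST1 right, and 35 of 26337 at least the 15 of HIST2. The mean tile held 0.977, 0.338 and 0.409 DDX5 peaks. For Fra-1, 10 of 11034, 23 of 31923 and 110 of 26377 tiles held as many. The edges of the stretches were fitted to the gene clusters and those of the tiles were not, so the counts are a description only.

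Only at HIST2 were the spans without DDX5 peaks beyond the edges longer than the longest gap inside. Between neighbouring peaks of either antibody, that gap was 47.2 kb in HIST1 left, 26.3 kb in HIST1 right and 23.7 kb in HIST2. The last DDX5 peak before HIST1 left ended 22.0 kb away and the next after it began 21.3 kb away. For HIST2 those distances were 144 and 34.6 kb, and for HIST1 right 9.79 and 5.21 kb. The nearest outside peaks had DDX5 folds of 3.80 to 7.07, within the range inside the stretches. In flanks as wide as the stretch itself, DDX5 had 1 and 12 peaks on the sides of HIST1 left, 2 and 2 beside HIST1 right, and 0 and 2 beside HIST2.

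Inside the stretches the peaks lay in short runs. Peaks of both antibodies joined wherever they overlapped made 62 sites, 30 in HIST1 left, 19 in HIST1 right and 13 in HIST2. Of the 59 gaps between neighbouring sites, 32 were under 2 kb and 13 were of 10 kb or more. The longest gap was 47.2 kb, from 26056804 to 26104018 on chromosome 6. DDX5 peaks covered 6.26%, 7.59% and 10.6% of the 3 stretches and Fra-1 peaks 6.02%, 7.61% and 10.5%.

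**Figure D2:**
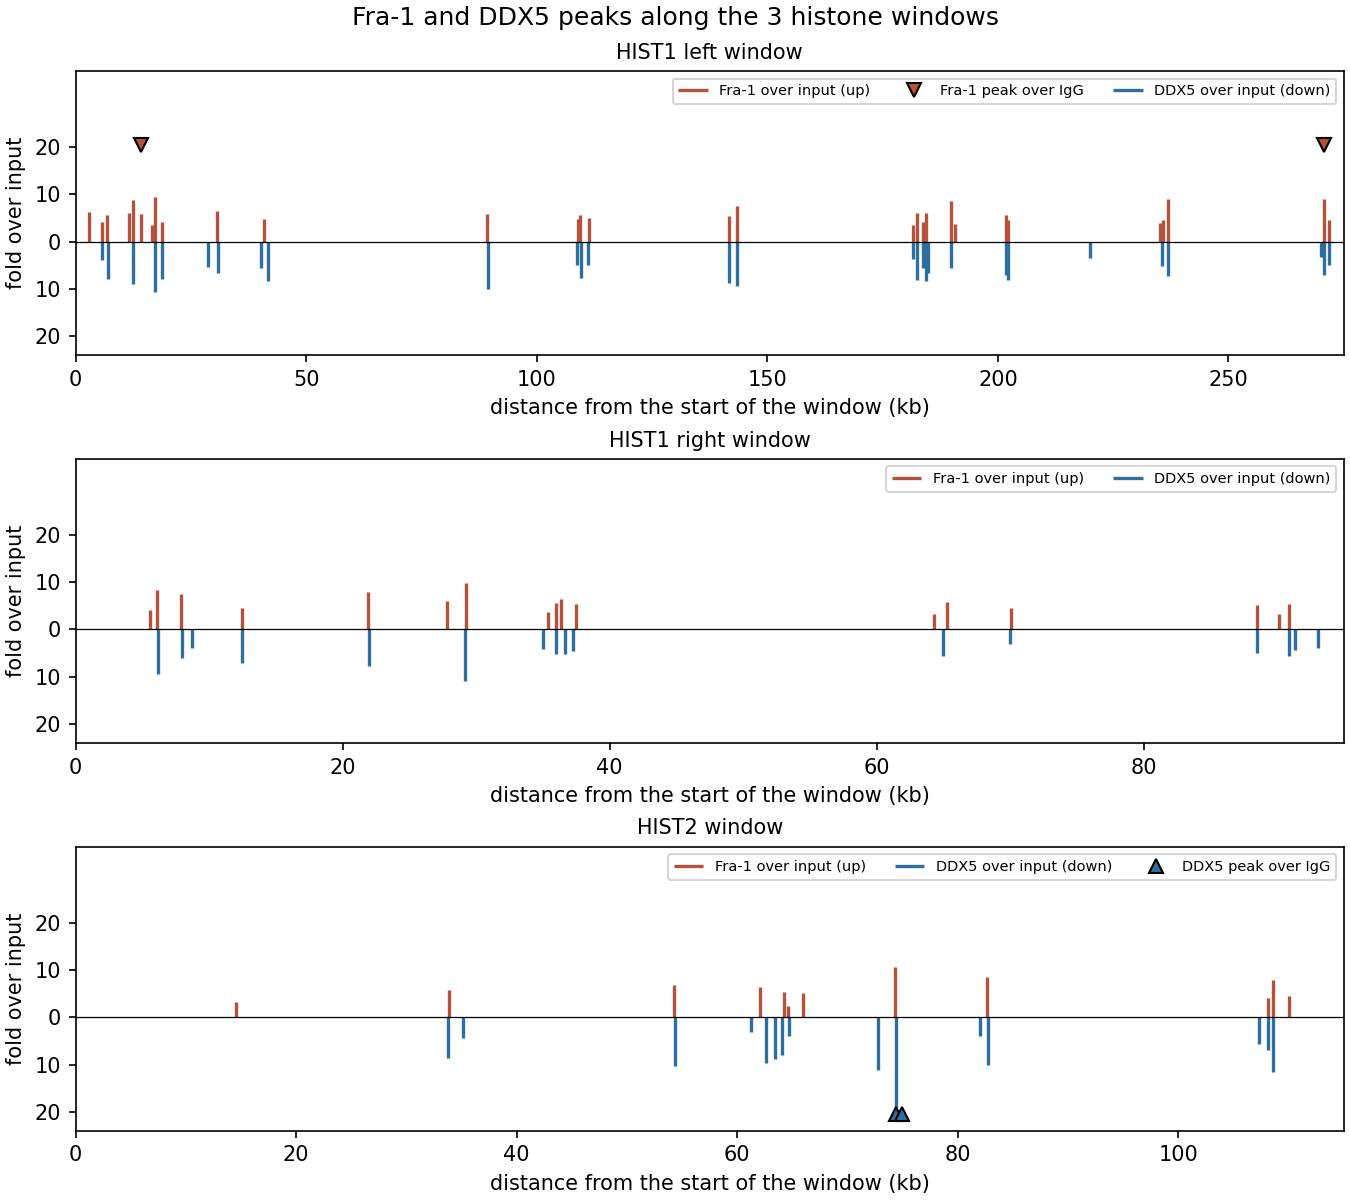
Fold over input of each Fra-1 peak (up) and DDX5 peak (down) at its summit, by distance in kb from the start of each histone stretch, with triangles at peaks called over IgG. Both antibodies fall in the same short runs, the tallest line is the 19.0-fold DDX5 peak of HIST2, and only 4 triangles appear.

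By an overlap of at least 1 bp, most sites were listed for both antibodies. Of the 62 sites, 44 (71.0%, interval 58.1% to 81.8%) held peaks of both, 8 of Fra-1 alone and 10 of DDX5 alone. Counted by peaks, a DDX5 peak over input lay at 51 of 59 Fra-1 peaks (86.4%, interval 75% to 94.0%), against 21.8% of all Fra-1 peaks over input. Of the DDX5 peaks, 50 of 60 (83.3%, 71.5% to 91.7%) overlapped a Fra-1 peak over input, against 61.8% of all DDX5 peaks. The shares for Fra-1 were 90%, 82.4% and 83.3% in HIST1 left, HIST1 right and HIST2, and for DDX5 86.2%, 81.2% and 80.0%, with intervals that overlapped. With summits required to lie within 100 bp the shares were 49.2% for Fra-1 (29 of 59) and 48.3% for DDX5 (29 of 60). With both lists at or above their median −log10 q they were 90% (27 of 30) and 54.9% (28 of 51). The whole-list shares under these stricter rules, and the share of joined sites outside the stretches, were not computed. Only the shares of peaks by 1 bp can thus be set against the list, and these are not matched on width. Median widths were 437 bp in the stretches and 317 bp in the list for Fra-1, and 522 and 285 bp for DDX5. Nor are they matched on calls over IgG, which 3.39% of these Fra-1 peaks had, against 50.5% of their list. The Fra-1 and DDX5 lists share their input library, which thus enters both sides of the overlap.

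**Figure D3:**
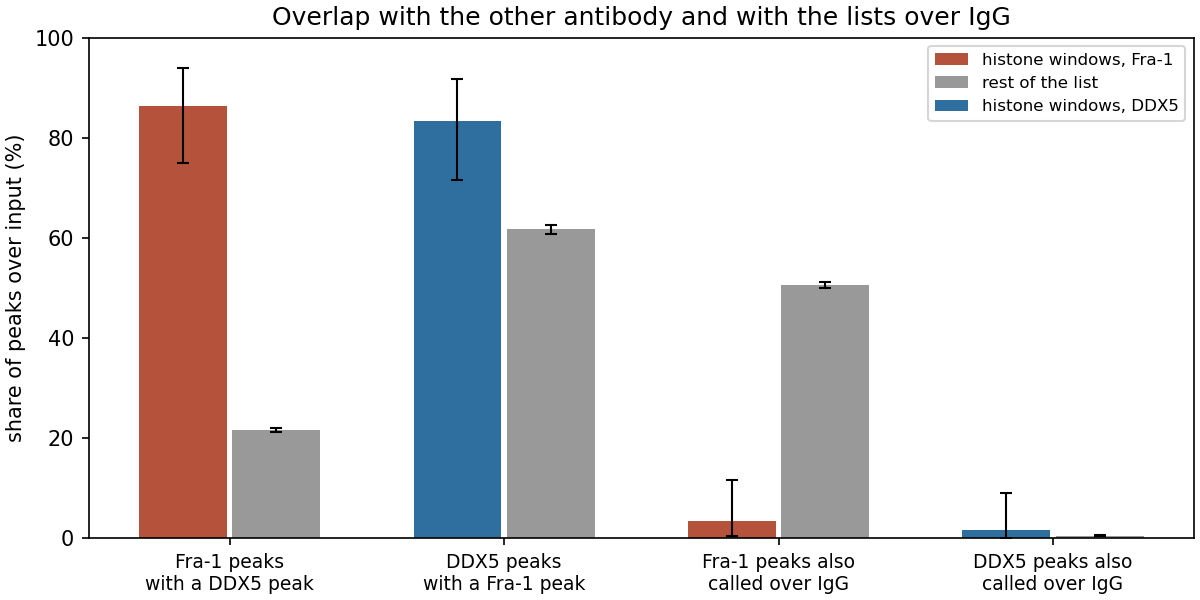
Share of peaks over input (%) in the histone stretches (coloured bars) and in the rest of the list (grey bars) that overlap the other antibody or are also called over IgG, with 95% exact binomial intervals. Histone peaks overlap the other antibody in 86.4% (Fra-1) and 83.3% (DDX5) of cases, against 21.6% and 61.7% in the rest of the list. Only 3.39% of the Fra-1 peaks were called over IgG, against 50.6% in the rest of the list.

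DDX5 peaks in the histone stretches ranked high in their own list, and Fra-1 peaks did not. The 60 DDX5 peaks had a median fold of 6.62 (interquartile range 4.90 to 8.43, highest 19.0), against 4.16 (3.61 to 4.89) in the whole list. Of them, 32 (53.3%, 40% to 66.3%) were in the highest decile of fold, which is 10% of the list by construction, and 20 (33.3%) reached 8-fold, against 2.28% of the list. The 60 are 0.554% of the list, and made up 5 of its 100 leading peaks by fold (5.0%), 20 of 250 (8.0%), 29 of 500 (5.8%) and 32 of 1000 (3.2%). The 59 Fra-1 peaks had a median fold of 5.52 (4.43 to 6.49, highest 10.7), close to the 5.37 of their list. None was in the highest decile of fold (10% of the list), which began at 15.3-fold, and 9 (15.3%, 7.22% to 27.0%) reached 8-fold, against 29.5% of the list.

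**Figure D4:**
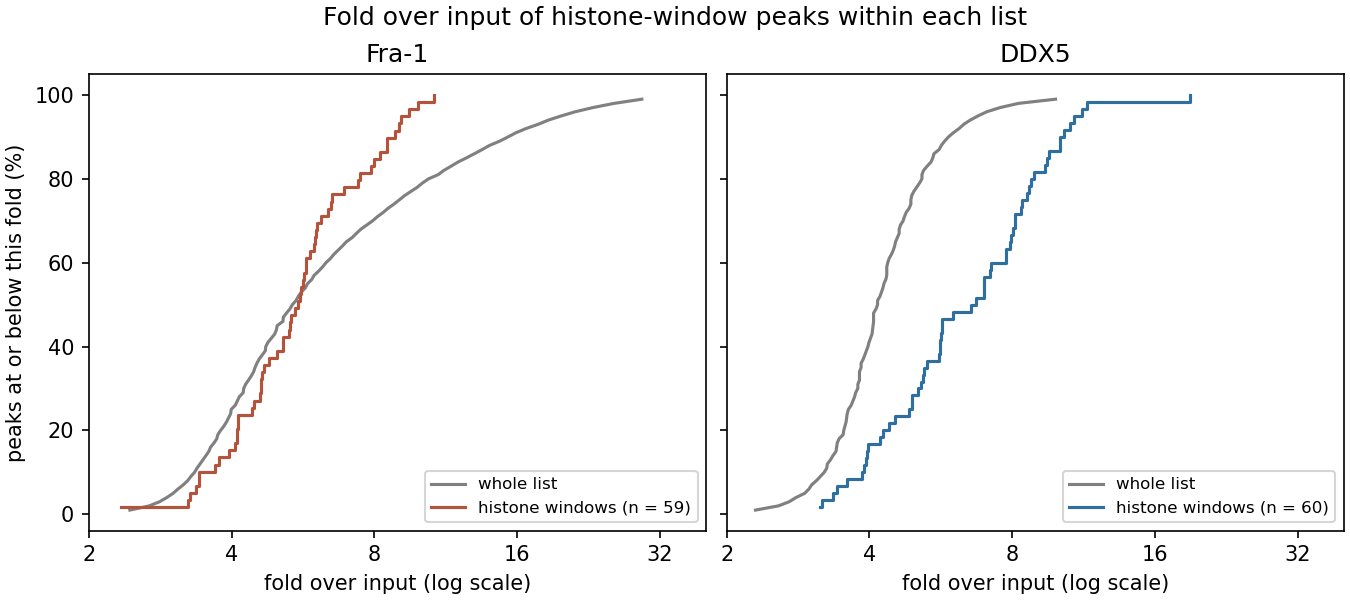
Cumulative share of peaks (%) by fold over input (log axis) for the histone peaks (coloured steps) and the whole list (grey), Fra-1 on the left and DDX5 on the right. The DDX5 steps lie to the right of their list (medians 6.62 and 4.16), while the Fra-1 steps cross their list near its median and end at 10.7-fold.

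Peak widths differed between the stretches. Of the Fra-1 peaks 9 of 59 (15.3%) were at least 1 kb wide, against 1.82% of the list, and of the DDX5 peaks 8 of 60 (13.3%), against 2.47%. The median Fra-1 width was 448 bp in HIST1 left, 309 bp in HIST1 right and 665 bp in HIST2, against 317 bp in the list, and 9 of the 17 Fra-1 peaks of HIST1 right were below that list median. The median DDX5 width was 544, 474 and 602 bp, against 285 bp. The widest Fra-1 peak spanned 3256 bp (149822037 to 149825292 on chromosome 1) and the widest DDX5 peak 1963 bp (149821978 to 149823940). Input levels at the peaks were near those of the lists, with medians of 4.84 and 4.45 for the Fra-1 peaks and their list and 4.20 and 3.83 for DDX5. They were higher in HIST2 (5.81 and 4.98) than in HIST1 left (4.84 and 3.78) or HIST1 right (4.07 and 3.60). The part of copy number or duplicated sequence in that difference was not tested.

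The HIST2 stretch held the strongest DDX5 peaks. The leading site ran from 149821978 to 149825467 on chromosome 1. Its DDX5 peak at 149824048 to 149825467 had a pileup of 88 and a fold of 19.0, which ranked 17 of 10836 by fold. A second DDX5 peak at 149821978 to 149823940 had a pileup of 68 (11.2-fold), and a single Fra-1 peak of 54 fragments (10.7-fold) overlapped both. The input level there was 3.67 under the main DDX5 summit, slightly below the list median. This was the only histone site with a DDX5 peak over IgG.

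Other HIST2 sites listed for both antibodies also had higher DDX5 than Fra-1 folds, but no peak over IgG. The site at 149858406 to 149860234 had an 11.5-fold DDX5 peak (pileup 62) and a Fra-1 fold of up to 7.87. That at 149803841 to 149804685 had folds of 10.3 for DDX5 and 6.90 for Fra-1, with pileups of 55 and 46. At 149832128 to 149833480 the folds were 10.1 and 8.52, with pileups of 56 and 57. All 4 of these sites thus had DDX5 folds over 10. A broad site at 149811537 to 149814449 held 3 DDX5 peaks of 8.01-fold to 9.56-fold and 2 Fra-1 peaks of 5.34-fold and 6.40-fold. At 149783445 to 149783949 DDX5 was at 8.60-fold and Fra-1 at 5.67-fold, and at 149857150 to 149858308 they were at 6.99-fold and 4.12-fold. The weakest common HIST2 site, 149814534 to 149814887, had 3.93-fold DDX5 and 2.34-fold Fra-1 enrichment, the lowest Fra-1 fold of all 59. DDX5 alone was listed at 149784926 (4.28-fold, input level 8.58), 149811230 (3.18-fold) and 149831809 (3.90-fold), and Fra-1 alone at 149764104 (3.23-fold) and 149815802 (5.14-fold). Of the 15 DDX5 peaks here, 9 reached 8-fold, against 9 of 29 in HIST1 left and 2 of 16 in HIST1 right.

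HIST1 left, the longest stretch, opened with a run of 16.2 kb from 26017772 to 26033948 that held 9 Fra-1 and 5 DDX5 peaks. Its strongest site, 26031498 to 26032508, had a DDX5 fold of 10.6 and a Fra-1 fold of up to 9.44, each with a pileup of 45. Nearby, 26026533 to 26027638 had folds of 8.88 for DDX5 and up to 8.86 for Fra-1. The sites at 26033020 and 26021668 had DDX5 folds of 7.94 and 7.90 and Fra-1 folds of 4.11 and 5.56. At 26020588 to 26021580 the DDX5 fold was 3.85 and the Fra-1 fold 4.12. Fra-1 alone was listed at 26017772 (6.16-fold) and at 26029010 (5.73-fold).

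Further along, sites stood more apart. An isolated site at 26104019 to 26104878, 18.3 kb or more from any other site, had a DDX5 fold of 10.1 and a Fra-1 fold of 5.73, both with a pileup of 38. The site at 26156362 to 26158785, 2424 bp wide, held 2 peaks of each antibody, with DDX5 folds of 8.69 and 9.38 and Fra-1 folds of 5.43 and 7.44. At 26055188 to 26056803 DDX5 reached 8.38-fold and Fra-1 4.79-fold, with summits 832 bp apart. These 3 sites all had DDX5 folds above 8 and Fra-1 folds below it. The site at 26045533 had 6.70-fold DDX5 and 6.47-fold Fra-1 peaks, and 26043536, close by, a DDX5 peak alone at 5.29-fold. Of 3 neighbours between 26123156 and 26126531, the middle site was the strongest, with 7.75-fold DDX5 and 5.65-fold Fra-1 enrichment, and the outer ones were at 4.85-fold and 5.05-fold for DDX5 and 4.69-fold and 4.98-fold for Fra-1.

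A second run, 9.39 kb from 26196354 to 26205744, held 6 peaks of each antibody. DDX5 was highest at 26199060 (8.35-fold) and 26197038 (8.10-fold), where Fra-1 was at 5.99-fold and 5.97-fold. The highest Fra-1 fold of the run was elsewhere, at 26204575, with 8.49-fold Fra-1 and 5.64-fold DDX5 enrichment. The site at 26198596 had 5.68-fold DDX5 and 4.06-fold Fra-1 peaks, that at 26196354 3.59-fold and 3.42-fold. DDX5 alone was listed at 26199755 (6.54-fold, the highest fold of a DDX5 peak without Fra-1), and Fra-1 alone at 26205458 (3.77-fold). The pair of sites at 26216424 and 26217110 had DDX5 folds of 6.99 and 8.12 and Fra-1 folds of 5.52 and 4.62.

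The end of HIST1 left held 2 of its 5 Fra-1 peaks of at least 8-fold. Fra-1 reached 9.08-fold at 26285395 to 26285981 (pileup 52) and 9-fold at 26251756 to 26252359 (pileup 39), with DDX5 at 6.99-fold and 7.22-fold. At 26249992 and 26286591 the DDX5 folds were 5.13 and 4.91 and the Fra-1 folds 4.64 and 4.58. DDX5 alone was listed at 26234886 (3.42-fold) and 26284888 (3.35-fold), both weak in their list.

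HIST1 right had the highest density and lower DDX5 folds, with a median of 5.20 against 6.99 in HIST1 left and 8.60 in HIST2. Its leading site, 27798773 to 27799494, had folds of 10.8 for DDX5 and 9.87 for Fra-1, each with a pileup of 40. At 27775896 to 27776457 the folds were 9.49 and 8.23, with pileups of 36 and 34. At 27791732 to 27792825 they were 7.75 and 7.99. These 3 sites were the strongest of the stretch for both antibodies. The sites at 27782106 and 27777749 had DDX5 folds of 7.17 and 5.99 and Fra-1 folds of 4.45 and 7.39.

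The remaining HIST1 right sites had DDX5 folds of 5.70 or less. A run of 4 from 27804970 to 27807823, in 2.85 kb, had DDX5 folds of 4.21, 5.19, 5.21 and 4.52 and Fra-1 folds of 3.69, 5.59, 6.51 and 5.31. At 27834172 and 27839877 DDX5 was at 5.64-fold and 3.14-fold, the latter the lowest of all 60, and Fra-1 at up to 5.85-fold and 4.62-fold. At 27860474 and 27858384 the DDX5 folds were 5.70 and 4.91, and those of Fra-1 5.28 and 5.14. DDX5 alone was listed at 27861255 (4.39-fold), 27862955 (3.97-fold) and 27778688 (3.96-fold). Fra-1 alone was listed at 27797702 (6.06-fold), 27775337 (4.11-fold) and 27860052 (3.26-fold). Peaks of a single antibody were weaker on the median. Over all stretches the 10 DDX5 peaks without Fra-1 had a median fold of 3.97 and the 50 with it 7.19, and the 8 Fra-1 peaks without DDX5 had 4.62 and the 51 with it 5.56.

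Where both antibodies were listed, their pileups and folds were compared site by site. Over the 50 DDX5 peaks paired with their nearest overlapping Fra-1 peak, the log2 pileups had a Pearson r of 0.77 (Spearman 0.74), against 0.34 (0.36) over all 6700 such pairs. For log2 folds r was 0.68 (Spearman 0.66) against 0.14 (0.18). Within stretches the pileup r was 0.60 (Spearman 0.57, 25 pairs) in HIST1 left, 0.79 (0.75, 13 pairs) in HIST1 right and 0.75 (0.48, 12 pairs) in HIST2. The pooled values also join stretches of unlike level, with median DDX5 pileups of 34, 25 and 55.5 in these pairs. These are correlations across sites of 1 library each, in which some pairs share a Fra-1 peak and the folds share the input level. The summits of the 50 pairs were a median of 74 bp apart, with 29 (58.0%) within 100 bp, against 73 bp and 60.1% over all pairs, so their spacing was about that of all pairs.

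**Figure D5:**
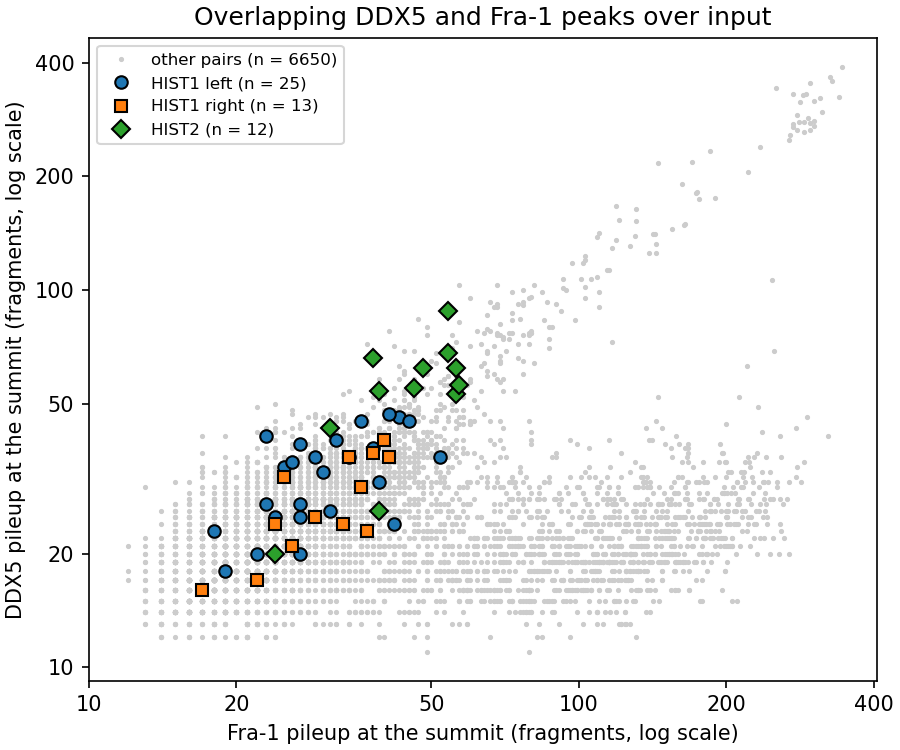
DDX5 pileup against Fra-1 pileup (fragments at the summit, log axes) for overlapping peaks over input, with the 50 pairs of the histone stretches in colour and the other 6650 in grey. The histone pairs rise together (r = 0.77 on the log2 scale), and none lies among the grey pairs of high Fra-1 and low DDX5 pileup at the lower right.

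The DDX5 peaks were also set beside other places where DDX5 peaks gather. When DDX5 peaks over input at most 20 kb apart were joined, 320 groups held 5 or more peaks. Of these, 5 held peaks of the histone stretches. Ranked by median fold, the HIST2 group (149783445 to 149833109, 12 peaks, median 8.69-fold) was at place 2. The HIST1 left groups at 26020599 to 26056803 (9 peaks, 7.90-fold) and 26196591 to 26252359 (11 peaks, 6.54-fold) were at places 4 and 7. The 2 groups of HIST1 right, both of which ran past its edges, were at places 31 (5.21-fold) and 91 (4.65-fold). The HIST2 group held 8 peaks of at least 8-fold, and the next highest of the 320 held 5.

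In the 5 groups 16 of 51 peaks (31.4%, 19.1% to 45.9%) reached 8-fold and 41 (80.4%, 66.9% to 90.2%) overlapped Fra-1. In the other 315 groups, 110 of 2648 (4.15%) and 1497 (56.5%) did, at a similar median input level (3.88 against 3.78). The distance was chosen after the values were seen, and 4 distances were tried. At the shorter ones the share at 8-fold was 34.1% to 43.8% in the histone groups and 4.07% to 4.85% in the others. The ranks depended on the distance: at 10 kb they were 1, 2, 5, 12 and 65 of 233, and at 5 kb 3 histone groups were left, at 1, 2 and 5 of 177. At 5 kb the HIST2 group held 3 peaks of at least 8-fold and was no longer first by that count, but at place 2.

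Almost none of these peaks were called over IgG. Of the 59 Fra-1 peaks over input, 2 (3.39%, 0.413% to 11.7%) were also called over IgG, against 50.5% of all Fra-1 peaks over input. Of the 9 that reached 8-fold over input, 1 was called over IgG (11.1%, 0.281% to 48.2%), against 97.6% of all Fra-1 peaks of that fold. Overlap with DDX5 is itself linked to fewer IgG calls, and the comparison was repeated among such peaks. Of the 51 Fra-1 peaks with a DDX5 peak, 1 was called over IgG (1.96%, 0.0496% to 10.4%), against 21.8% of all Fra-1 peaks with a DDX5 peak. At 8-fold or more it was 1 of 9, against 86.8%. In both 8-fold comparisons the histone peaks had folds of 8.23 to 10.7, while the list reached 57.2-fold, so they are not matched on fold.

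DDX5 had few calls over IgG anywhere. Of the 60 DDX5 peaks, 1 (1.67%, 0.0422% to 8.94%) overlapped a DDX5 peak over IgG, against 0.508% of all DDX5 peaks, a value inside that interval. Of the 20 DDX5 peaks of at least 8-fold, 1 was called over IgG (5.0%, interval 0.127% to 24.9%), against 13% of all such peaks. Each of the 20 lay on a Fra-1 peak over input, as did 96.8% of all DDX5 peaks of that fold. All 9 Fra-1 peaks of at least 8-fold overlapped a DDX5 peak, against 15.3% of all Fra-1 peaks of at least 8-fold, again not matched on fold.

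The 4 peaks that were called over IgG lay at 3 sites. In the HIST2 site, DDX5 peaks over IgG were at 149824189 to 149824503 (pileup 87.8, 3.70-fold) and 149824812 to 149825232 (63.8, 3.41-fold). The first ranked 4 of 61 by −log10 q in its list. The IgG level was 23 and 18 fragments, where the input level under the matching DDX5 peak over input was 3.67. No Fra-1 peak over IgG was listed there, although Fra-1 was 10.7-fold over input.

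Fra-1 over IgG was listed at 2 sites, both in HIST1 left. At 26285650 to 26285880 it had a pileup of 46 and a fold of 1.88 over an IgG level of 24, while the input level at the peak over input was 4.84. That fold is close to the lowest of the list (1.71) and far below its median of 6.82. At 26029081 to 26029359 the pileup was 33.6 and the fold 4.33, over an IgG level of 7 and an input level of 5.81. This second site had no DDX5 peak in either list. At all 4 peaks over IgG the IgG level (7 to 24) was above the median of its list, 5.20 for Fra-1 and 14 for DDX5. None of the 4 reached 8-fold, a fold reached by 38.8% of their list for Fra-1 and by 4.92% for DDX5.

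The IgG library is the same in both lists, so a peak over IgG of either antibody gives its level. At the Fra-1 peak 149822037 to 149825292 the level was thus 23 and 18 fragments, with a Fra-1 pileup of 54 over input. At the DDX5 peak 26285395 to 26285897 it was 24 fragments, with a DDX5 pileup of 36 over input. Neither peak was called over IgG for its own antibody. These levels are at the summits of the peaks over IgG, at 149824361, 149824963 and 26285709. The summits over input were at 149824288 (Fra-1) and 26285648 (DDX5). The pileups of 54 and 36 are not scaled, whereas pileups over IgG are, in steps of 0.884 (Fra-1) and 0.998 (DDX5). Levels and pileups are thus nearly on 1 scale for DDX5 but not for Fra-1. At the other 56 Fra-1 and 58 DDX5 peaks over input the IgG level is not known, and there binding and recovery without a specific antibody cannot be told apart from the lists. The counts over input for Fra-1 and DDX5 therefore rest on the input control.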

How the data were processed

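Peak lists of 1 Fra-1 and 1 DDX5 ChIP library, each called by the authors against 1 input and 1 IgG library, were used as deposited. The submitters' processing notes name CASAVA 1.8, Bowtie 0.12.9, HOMER and hg19, without their roles. The sources do not name the peak caller or its settings. Per the file headers, the deposited signal is the pileup and the deposited fold enrichment is a ratio. The authors' −log10 p and −log10 q columns have damaged headers and were identified from their values. The values themselves show whole-number pileups over input and scaled ones over IgG. The control level was computed as pileup plus 1, over fold, minus 1, an assumed form of the fold that no header states.

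Members were peaks overlapping the 3 hg19 stretches. Peaks were compared by an overlap of at least 1 bp, and shares have 95% Clopper-Pearson intervals. The members, lists and comparisons were chosen with earlier results of these data known. Named were all peaks over IgG, all sites of both antibodies, the 5 leading peaks by −log10 q per stretch and list, and the lowest fold of each list; the remaining sites, tiles, dense groups, pileup correlations and promoter motifs were added after the values were seen. Chromosome lengths were taken as the last peak end. RefSeq promoters (GRCh38.p14) were read only as sequence. Alternatives were a minimum of 8-fold, summits inside the stretch, summits within 100 bp, 50% overlap of either peak, and −log10 q at or above the list median. The overlap code was tested on simulated data. Tools were matplotlib 3.10.9, scipy 1.17.1, pandas 2.3.3 and numpy 2.4.6 under Python 3.11.15.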

Additional observations from a re-analysis of the deposited data

How the results depend on the processing

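Shares kept within their interval, and counts within 1.5 times of those given, under 15 of 24 alternatives. At 8-fold or more the stretches held 9 Fra-1 and 20 DDX5 peaks over input and 0 and 0 over IgG, fewer by construction. With summits within 100 bp, 48.3% of DDX5 peaks met a Fra-1 peak and 49.2% of Fra-1 peaks a DDX5 peak. With both lists at or above their median −log10 q, 54.9% of DDX5 peaks met a Fra-1 peak and 0 of 30 Fra-1 peaks (0%) a Fra-1 peak over IgG, since both partners fell below the median of their list; this threshold removes partners. Without the HIST2 stretch, added after the data were seen, 84.4% of DDX5 peaks met a Fra-1 peak and 87.2% the reverse, 4.26% of Fra-1 peaks were called over IgG, and for DDX5 0 of 45 (0%), as its only such peak lies in HIST2. Counts of histone genes with a peak at their start, and the comparison list of other histone genes and regulators, were not run because no hg19 annotation was used here. No paired analysis was possible because there is 1 library per antibody. Absolute depth is unknown, and limits on single peaks were not computed.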
